A study of Mus musculus with 35 samples.

Results

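The 46 genes described here make the proteins that copy DNA and supply its building blocks. They were chosen by symbol for their roles, and all 46 were on the array, among 12393 genes with a named probe set. Where a gene had more than 1 probe set, the one with the highest mean over all 35 arrays was taken. Values are RMA (robust multi-array average) log2 levels, so a difference of 1 is a doubling.

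Mouse B cells of 6 stages were sorted from wild-type mice, and lymphoid tumours of 3 mouse models were profiled whole, on Affymetrix 430A2 arrays. The 13 tumour arrays came from Lig4/p53 double knock-out mice (n = 6), from Bcl6/Myc dual-transgenic mice (n = 3) and from Bcl6 knock-in mice (n = 4). Bone marrow was the source of pro-B cells (n = 3, sorted as B220+, CD43-high and IgM-, 2 of strain 129 and 1 of B6), of pre-B cells (n = 3, sorted as B220+, CD43-low and IgM-, strain 129) and of plasma cells (n = 3, sorted as B220-low, Cd138+ and Cd93-, B6). Spleen gave transitional B cells (B220+, Cd93+; n = 4, strain 129), germinal centre B cells (B220+, PNA-high; n = 5, B6) and plasmablasts (B220+, Cd138+, Cd93-; n = 4, B6). The promoters of the transgenes, the ages of the mice, pooling and whether replicates are separate mice are not given in the sources used here, so p-values measure the spread between these arrays.

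Replication starts where the origin recognition complex, Cdc6 and Cdt1 load the ring of Mcm2 to Mcm7, the helicase that unwinds DNA, and where Cdc7 with Dbf4, Cdc45 and the GINS complex switch it on. Polymerase alpha with primase starts each strand, polymerases delta and epsilon extend it on the Pcna clamp, and ribonucleotide reductase and the salvage kinases supply deoxynucleotides. Pro-B cells, large pre-B cells, germinal centre B cells and plasmablasts are known as dividing stages, while transitional B cells and mature plasma cells mostly rest. Many of these genes are known targets of E2F factors, which bind near their start sites.

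RefSeq promoter windows (GRCm38.p6, 250 bases before to 50 after a start site) were available for 40 of the 46 genes. The E2F words TTTGGCGC, TTTCGCGC, TTTCCCGC and TTTGCCGC were searched on both strands. At least 1 word stood in 14 of the 40 genes (35%), against 402 of 9887 genes of the array with a window (4.07%). Those 14 were Mcm3, Mcm5, Mcm6, Mcm7, Cdc6, Cdt1, Orc1, Pola1, Pold1, Pole2, Rfc3, Lig1, Uhrf1 and Dnmt1. CCAAT stood in 24 of the 40 (60.0%, against 42.3%), and CACGTG in 6 (15.0%, against 10.8%). The 3 stretches shown first belong to genes whose levels followed the whole set across the groups, and the last 2 to Dck and Pold4, which departed from it. Each runs from 170 bases before the start site to 20 bases after it, 5′ to 3′ along the gene's strand, with E2F words in capitals. In 2 places words of opposite strands overlap and share 1 run of capitals. The stretches lie at chr1:128359686-128359875 (Mcm6, minus strand), chr8:75109339-75109528 (Mcm5, plus strand), chr11:98907981-98908170 (Cdc6, plus strand), chr5:88764843-88765032 (Dck, plus strand) and chr19:4231723-4231912 (Pold4, plus strand).
Mcm6: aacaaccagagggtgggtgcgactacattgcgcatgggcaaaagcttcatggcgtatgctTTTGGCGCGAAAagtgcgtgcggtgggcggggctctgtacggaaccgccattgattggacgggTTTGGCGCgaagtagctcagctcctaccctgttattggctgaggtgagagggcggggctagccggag
Mcm5: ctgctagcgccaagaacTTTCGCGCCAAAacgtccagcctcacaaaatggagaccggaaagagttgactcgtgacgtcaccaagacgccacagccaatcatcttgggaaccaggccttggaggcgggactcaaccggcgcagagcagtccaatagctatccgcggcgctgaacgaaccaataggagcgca
Cdc6: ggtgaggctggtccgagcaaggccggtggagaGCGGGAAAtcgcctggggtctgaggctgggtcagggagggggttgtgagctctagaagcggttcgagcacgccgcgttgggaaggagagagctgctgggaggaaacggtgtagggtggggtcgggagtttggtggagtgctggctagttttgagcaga
Dck: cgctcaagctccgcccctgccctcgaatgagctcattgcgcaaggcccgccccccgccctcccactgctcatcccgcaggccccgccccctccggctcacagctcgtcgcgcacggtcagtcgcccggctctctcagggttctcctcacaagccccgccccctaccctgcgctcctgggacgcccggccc
Pold4: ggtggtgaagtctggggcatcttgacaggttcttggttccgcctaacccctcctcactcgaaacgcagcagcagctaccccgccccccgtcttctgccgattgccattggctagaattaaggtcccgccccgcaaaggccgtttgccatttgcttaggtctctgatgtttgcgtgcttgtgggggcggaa
The Mcm6 stretch held 3 words, the Mcm5 stretch 2 and the Cdc6 stretch 1. The stretches of Dck and Pold4 held 0, and neither gene had one in its 300 bases. Pattern and word did not always go together: Cdc45, Rrm1 and Mcm2 followed the set over the 9 group means (correlations 0.94, 0.88 and 0.86) without a word in their windows, and Pold1 (0.19) had a word.

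Several arrays stood apart from the rest, and some went against their labels. The Myc gene averaged 5.15 ± 0.24 in Myc/Bcl6-labelled tumours and 6.67 ± 0.62 in Bcl6 tumours, so the arrays of the dual-transgenic mice are called Myc/Bcl6-labelled. The Bcl6 gene averaged 6.68 ± 2.46 and 7.17 ± 0.97 in the same order, and 5.62 in Lig4/p53 tumours. Its means were 11.22 in germinal centre, 9.75 in transitional, 9.39 in plasmablast, 8.89 in pro-B, 7.83 in pre-B and 3.62 in plasma cell arrays. The name Bcl6 tumours thus refers to the mice and not to a high Bcl6 level. Sdc1, which encodes the sort marker Cd138, had 3.88 to 5.71 in plasma cells and 5.52 to 10.44 in plasmablasts, so its level goes against a plasma cell sort on that marker. The mean of 5 plasma cell markers was 7.90 in plasma cells and 8.95 in plasmablasts. It was 8.59 in pre-B, 8.35 in transitional, 8.33 in germinal centre and 7.55 in pro-B cells. Cd93 marked the sorts of transitional cells (positive) and of plasmablasts and plasma cells (negative). Its gene had 5.03 to 7.74 in transitional cells, 5.00 to 6.39 in plasmablasts and 6.03 to 8.14 in plasma cells. These ranges overlapped. The B-cell receptor gene Cd79a had 5.51 to 7.54 in Myc/Bcl6-labelled and 6.80 to 7.22 in Bcl6 tumours, against 10.31 to 11.34 in germinal centre cells. Lig4 and Trp53 were not analysed here. On 3 arrays the values were squeezed together: the first pro-B, the second pre-B and the second Bcl6 tumour array (interquartile range 2.03 to 2.15, against 2.33 to 4.23 on the others). Results are also given without these 3 narrow arrays. The 18S rRNA control was 4.14 to 6.15 in the tumours and 4.02 to 7.38 in plasma cells, against 10.04 to 11.28 in the other stages. The excess of 3′ over 5′ control signal was 4.59, 4.46 and 0.451 in plasma cell replicates 1 to 3. Bulk arrays cannot tell fewer cells of a type from less RNA per cell.

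Across the 6 sorted stages, 24 of the 46 genes changed in limma's F-test (52.2%), against 32.5% of all 12393 genes. Without the 3 narrow arrays 42 did, against 62.7%. Transitional B cells had the lowest mean of the 6 stages for 33 genes, and for 38 without the 3 narrow arrays. Plasma cells had the highest mean for 21 genes, germinal centre cells for 12, pro-B cells for 7, pre-B cells for 5 and transitional cells for 1 (Pold4). Without the narrow arrays these counts became 14, 10, 19, 2 and 1. Lig4/p53 tumours had the highest mean of the 3 tumour groups for 43 genes, and the other 3 were Mcm4, Rrm2 and Tyms. Counts of highest and lowest means were not made over all 12393 genes, so they cannot tell what is particular to the set. By role, the F-test called 6 of 9 helicase genes, 3 of 8 origin genes, 5 of 9 polymerase genes, 1 of 6 clamp genes, 2 of 5 genes of single strands and ligation, 4 of 6 nucleotide genes and all 3 chromatin genes.

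**Figure D1:**
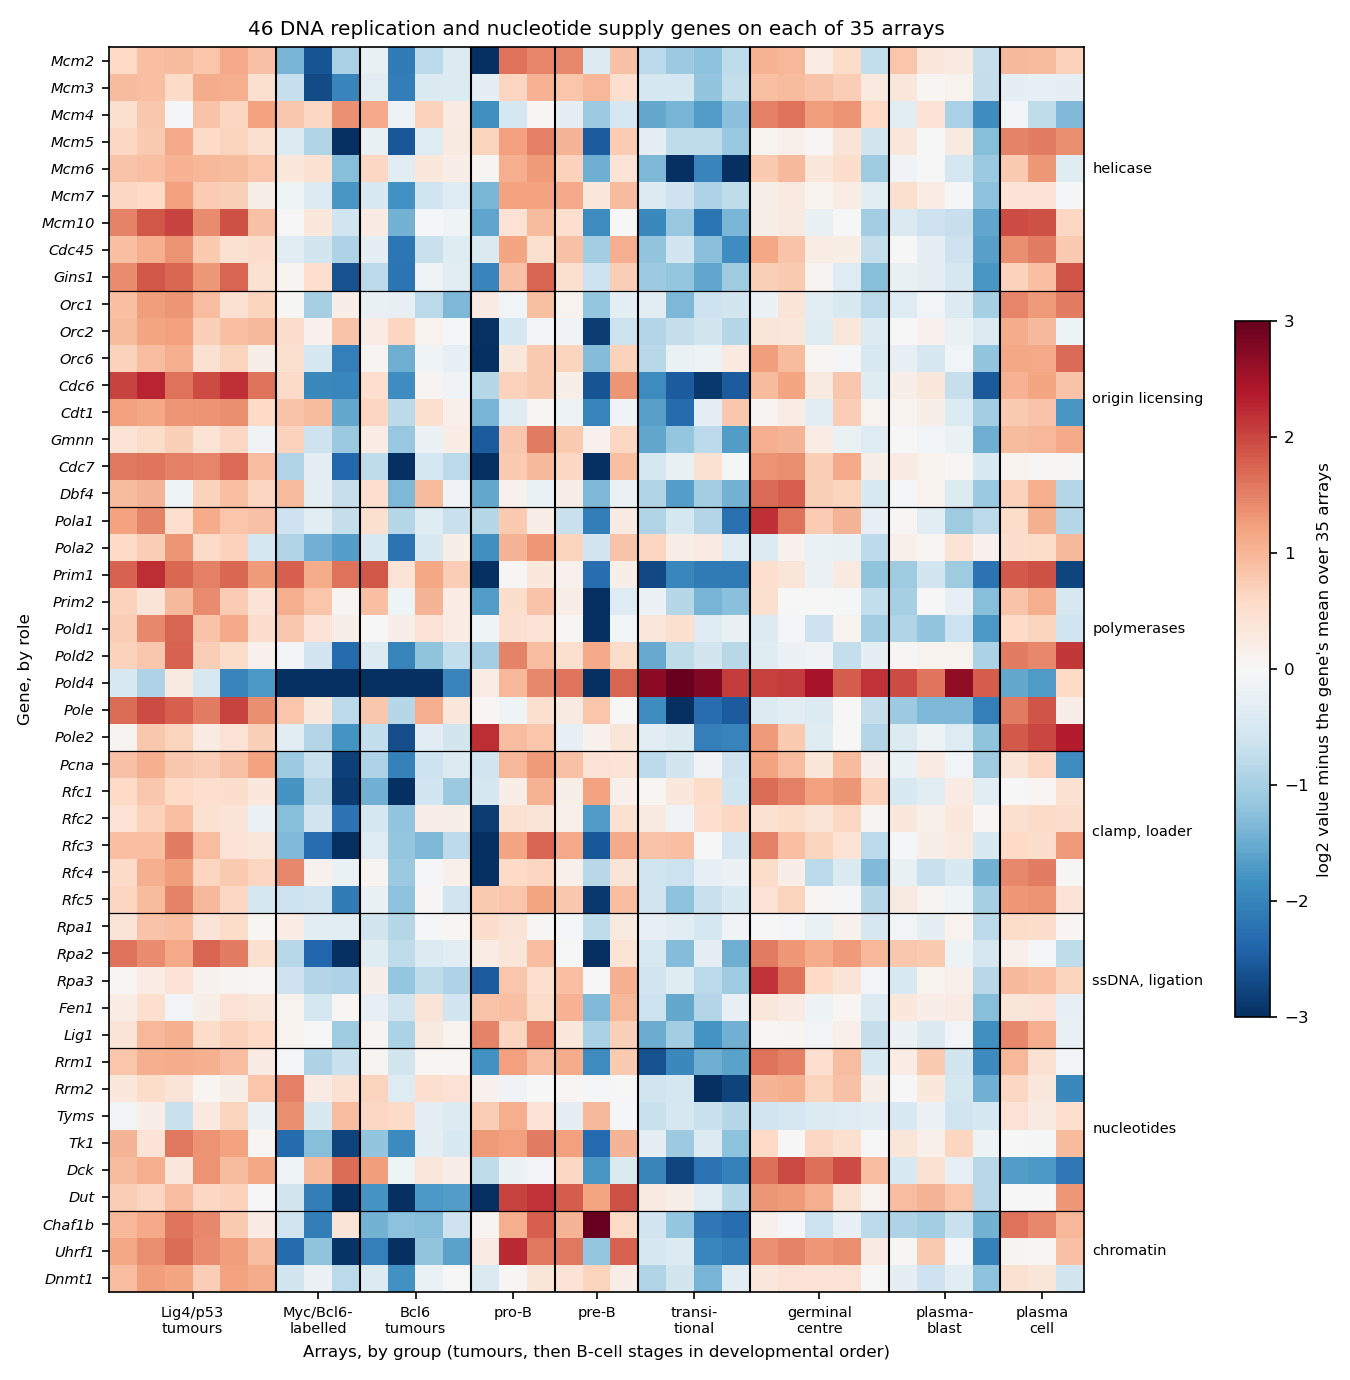
Level of each of the 46 genes (rows, by role) on each of 35 arrays (columns, by group), as the log2 value minus the gene's mean over 35 arrays, in red above and in blue below that mean. Lig4/p53 tumours are mostly red and transitional cells mostly blue, while Pold4 runs the other way and 3 arrays (the first pro-B, the second pre-B and the second Bcl6 column) are blue for many genes.

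The mean over the 46 genes was 8.93 ± 0.20 in Lig4/p53 tumours (n = 6), 7.41 ± 0.51 in Myc/Bcl6-labelled tumours (n = 3) and 7.56 ± 0.56 in Bcl6 tumours (n = 4). In stage order it was 8.25 ± 1.07 in pro-B cells, 8.08 ± 0.92 in pre-B cells, 7.20 ± 0.13 in transitional, 8.48 ± 0.43 in germinal centre, 7.77 ± 0.51 in plasmablast and 8.62 ± 0.31 in plasma cell arrays (SD). Over the 9 group means, the correlation of a gene with the mean of the other 45 had a median of 0.74, and 27 genes had 0.7 or more. Cdc6 (0.95), Gins1 (0.94) and Cdc45 (0.94) followed the set most closely. Pold4 (0.00), Tyms (0.18), Pold1 (0.19), Mcm4 (0.22), Dck (0.22), Prim1 (0.29), Orc2 (0.30) and Prim2 (0.33) followed it least. These correlations describe 9 points that share arrays and normalization, on the brightest probe set of each gene. On its second-brightest set Mcm4 averaged 9.53 in Lig4/p53, 7.11 in Bcl6 and 6.64 in Myc/Bcl6-labelled tumours. Its brightest set had 10.25, 10.08 and 10.52 there.

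**Figure D2:**
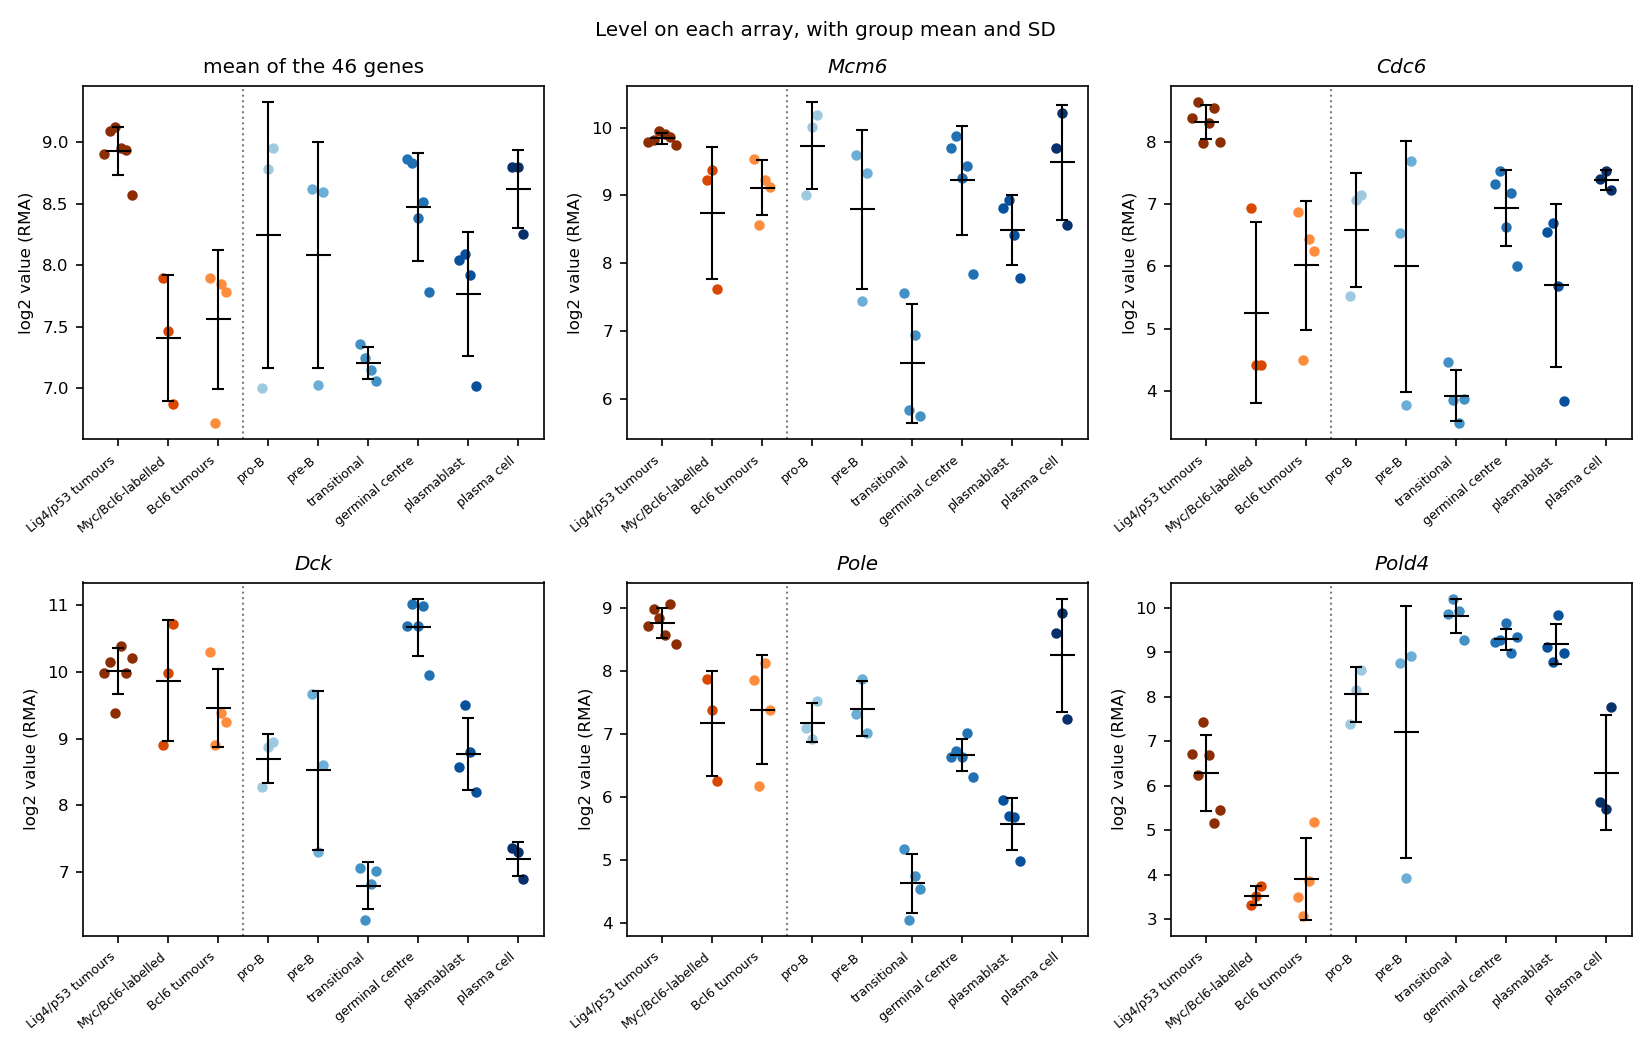
Log2 level on each array (points) by group, with the group mean and SD (bars), for the mean of the 46 genes and for Mcm6, Cdc6, Dck, Pole and Pold4; tumours stand left of the dotted line. Dck is highest in germinal centre cells (9.96 to 11.02) and Pold4 lowest in the Myc/Bcl6-labelled and Bcl6 tumours (3.07 to 5.19).

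The helicase genes are given first, with replicates in their numbered order, and for the 6 Lig4/p53 tumours as lowest, median and highest. Mcm2 had levels of 7.99, 8.29 and 8.53 in Lig4/p53 tumours, of 5.99, 4.81 and 6.41 in Myc/Bcl6-labelled tumours and of 7.16, 5.29, 6.59 and 6.98 in Bcl6 tumours. Pro-B cells had 4.06, 9.03 and 8.86, pre-B cells 8.84, 6.98 and 8.28 and transitional cells 6.58, 6.30, 6.15 and 6.63 for Mcm2. Germinal centre cells followed with 8.43, 8.38, 7.61, 7.95 and 6.65, plasmablasts with 8.22, 7.70, 7.65 and 6.70 and plasma cells with 8.37, 8.33 and 8.07. Mcm2, a ring subunit, was higher in all Lig4/p53 tumours than in any other tumour, and pro-B replicate 1 lay far below the other pro-B arrays. Levels of Mcm3 were 9.31, 9.76 and 9.94 in Lig4/p53 tumours, 8.15, 6.15 and 6.86 in Myc/Bcl6-labelled tumours and 8.50, 6.76, 8.40 and 8.43 in Bcl6 tumours. In bone marrow, Mcm3 had 8.55, 9.47 and 9.88 in pro-B, 9.67, 9.83 and 9.34 in pre-B and 8.53, 8.58 and 8.56 in plasma cells. In spleen, it had 8.31, 8.30, 7.65 and 8.12 in transitional cells, 9.73, 9.78, 9.69, 9.58 and 9.13 in germinal centre cells and 9.17, 8.90, 8.94 and 8.12 in plasmablasts. For Mcm3, also a ring subunit, no germinal centre array overlapped the transitional arrays, and Bcl6 tumour replicate 2 lay below the other Bcl6 tumours. Lig4/p53 tumours had Mcm4 at 9.56, 10.32 and 10.79, Myc/Bcl6-labelled tumours at 10.40, 10.21 and 10.96 and Bcl6 tumours at 10.74, 9.45, 10.29 and 9.83. It stood at 7.75, 9.06 and 9.63 in pro-B cells, at 9.32, 8.50 and 9.10 in pre-B cells and at 8.05, 8.21, 7.92 and 8.33 in transitional cells. Among later stages, Mcm4 was 11.10, 11.22, 10.85, 10.95 and 10.18 in germinal centre cells, 9.25, 10.02, 8.61 and 7.72 in plasmablasts and 9.52, 8.83 and 8.26 in plasma cells. Mcm4, a ring subunit as well, had its highest mean in germinal centre cells, while its 3 tumour groups overlapped. Mcm5 had levels of 9.0, 9.16 and 9.66 in Lig4/p53 tumours, of 8.11, 7.61 and 4.83 in Myc/Bcl6-labelled tumours and of 8.30, 5.97, 8.13 and 8.80 in Bcl6 tumours. Pro-B cells had 9.18, 9.76 and 10.04, pre-B cells 9.54, 6.03 and 9.29 and transitional cells 8.22, 7.77, 7.76 and 7.39 for Mcm5. Germinal centre cells followed with 8.63, 8.67, 8.56, 8.91 and 7.97, plasmablasts with 8.87, 8.54, 8.80 and 7.24 and plasma cells with 10.01, 10.05 and 9.91. Mcm5 was above 9.8 on all plasma cell arrays, and its low values stood on pre-B replicate 2, Bcl6 tumour replicate 2 and Myc/Bcl6-labelled replicate 3. Levels of Mcm6 were 9.74, 9.84 and 9.95 in Lig4/p53 tumours, 9.23, 9.38 and 7.63 in Myc/Bcl6-labelled tumours and 9.54, 8.57, 9.23 and 9.12 in Bcl6 tumours. In bone marrow, Mcm6 had 9.0, 10.01 and 10.19 in pro-B, 9.60, 7.45 and 9.33 in pre-B and 9.70, 10.21 and 8.56 in plasma cells. In spleen, it had 7.57, 5.84, 6.94 and 5.76 in transitional cells, 9.70, 9.88, 9.26, 9.43 and 7.85 in germinal centre cells and 8.81, 8.93, 8.42 and 7.79 in plasmablasts. Mcm6 lay close together in the Lig4/p53 tumours and was lower on every transitional array than on any germinal centre array. Lig4/p53 tumours had Mcm7 at 10.22, 10.70 and 11.27, Myc/Bcl6-labelled tumours at 9.92, 9.63 and 8.29 and Bcl6 tumours at 9.58, 8.22, 9.45 and 9.65. It stood at 8.67, 11.25 and 11.25 in pro-B cells, at 11.17, 10.37 and 11 in pre-B cells and at 9.64, 9.41, 9.12 and 9.29 in transitional cells. Among later stages, Mcm7 was 10.21, 10.34, 10.15, 10.26 and 9.69 in germinal centre cells, 10.53, 10.27, 10 and 8.82 in plasmablasts and 10.44, 10.47 and 9.99 in plasma cells. Mcm7 was highest on 2 pro-B and 2 pre-B arrays among the stages. Probe sets with _s or _x in their names, as used for Mcm3, Mcm4 and Mcm7, can match other transcripts too.

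Cdc6, the factor that brings the ring to origins, is the origin gene shown array by array. Cdc6 had levels of 7.99, 8.35 and 8.64 in Lig4/p53 tumours, of 6.94, 4.42 and 4.41 in Myc/Bcl6-labelled tumours and of 6.87, 4.50, 6.44 and 6.25 in Bcl6 tumours. Pro-B cells had 5.52, 7.06 and 7.15, pre-B cells 6.54, 3.77 and 7.69 and transitional cells 4.47, 3.86, 3.48 and 3.87 for Cdc6. Germinal centre cells followed with 7.32, 7.54, 6.64, 7.18 and 6.01, plasmablasts with 6.55, 6.70, 5.68 and 3.84 and plasma cells with 7.40, 7.54 and 7.22. All 4 transitional arrays were below every germinal centre array, and plasmablast replicate 4 lay within the transitional range.

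Pold4, the small subunit of polymerase delta, had a pattern of its own among the polymerase genes. Levels of Pold4 were 5.17, 6.47 and 7.44 in Lig4/p53 tumours, 3.32, 3.53 and 3.75 in Myc/Bcl6-labelled tumours and 3.51, 3.07, 3.85 and 5.19 in Bcl6 tumours. In bone marrow, Pold4 had 7.39, 8.16 and 8.61 in pro-B, 8.77, 3.93 and 8.93 in pre-B and 5.63, 5.47 and 7.78 in plasma cells. In spleen, it had 9.86, 10.20, 9.94 and 9.27 in transitional cells, 9.23, 9.28, 9.65, 8.98 and 9.34 in germinal centre cells and 9.13, 8.79, 9.83 and 8.98 in plasmablasts. Its 3 splenic stages were high on every array, plasma cells were lower, and the Myc/Bcl6-labelled and Bcl6 tumours were below all Lig4/p53 tumours except Bcl6 tumour replicate 4. Its means fell in the order transitional, germinal centre, plasmablast, pro-B, pre-B, plasma cell, Lig4/p53, Bcl6 and Myc/Bcl6-labelled, and of neighbours in that order only plasmablast and pro-B arrays did not overlap.

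The sliding clamp Pcna holds the polymerases on DNA. Lig4/p53 tumours had Pcna at 11.15, 11.28 and 11.62, Myc/Bcl6-labelled tumours at 9.31, 9.74 and 7.61 and Bcl6 tumours at 9.49, 8.38, 9.78 and 10.01. It stood at 9.81, 11.40 and 11.69 in pro-B cells, at 11.28, 10.85 and 10.83 in pre-B cells and at 9.63, 9.86, 10.31 and 9.78 in transitional cells. Among later stages, Pcna was 11.61, 11.33, 10.78, 11.35 and 10.60 in germinal centre cells, 10.22, 10.65, 10.33 and 9.35 in plasmablasts and 10.80, 11.02 and 8.52 in plasma cells. Pcna was higher on all Lig4/p53 tumours than on any Myc/Bcl6-labelled or Bcl6 tumour.

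Among the nucleotide genes, Rrm2 encodes the small subunit of ribonucleotide reductase, Tyms makes thymidylate and Dck phosphorylates salvaged deoxycytidine. Rrm2 had levels of 10.60, 10.89 and 11.37 in Lig4/p53 tumours, of 12.04, 10.79 and 10.98 in Myc/Bcl6-labelled tumours and of 11.21, 10.15, 11.03 and 10.96 in Bcl6 tumours. Pro-B cells had 10.66, 10.42 and 10.55, pre-B cells 10.58, 10.47 and 10.51 and transitional cells 9.94, 10, 7.49 and 7.75 for Rrm2. Germinal centre cells followed with 11.56, 11.61, 11.21, 11.42 and 10.70, plasmablasts with 10.52, 10.86, 10.01 and 9.09 and plasma cells with 11.15, 10.86 and 8.59. Transitional arrays of Rrm2 were all below every pro-B, pre-B, germinal centre and tumour array, and transitional replicates 3 and 4 were the lowest of all. Levels of Tyms were 3.21, 3.93 and 4.54 in Lig4/p53 tumours, 5.27, 3.43 and 4.81 in Myc/Bcl6-labelled tumours and 4.49, 4.45, 3.58 and 3.47 in Bcl6 tumours. In bone marrow, Tyms had 4.62, 4.96 and 4.32 in pro-B, 3.58, 4.85 and 3.81 in pre-B and 4.32, 4.15 and 4.38 in plasma cells. In spleen, it had 3.21, 3.37, 3.21 and 3.03 in transitional cells, 3.28, 3.38, 3.47, 3.48 and 3.56 in germinal centre cells and 3.41, 3.69, 3.27 and 3.35 in plasmablasts. Tyms stayed below the median of all genes (5.30) on every array, so its differences come from dim values. Lig4/p53 tumours had Dck at 9.38, 10.07 and 10.38, Myc/Bcl6-labelled tumours at 8.91, 9.99 and 10.71 and Bcl6 tumours at 10.29, 8.91, 9.38 and 9.25. It stood at 8.28, 8.87 and 8.95 in pro-B cells, at 9.67, 7.30 and 8.61 in pre-B cells and at 7.07, 6.29, 6.82 and 7.02 in transitional cells. Among later stages, Dck was 10.69, 11.02, 10.69, 10.99 and 9.96 in germinal centre cells, 8.58, 9.50, 8.80 and 8.20 in plasmablasts and 7.37, 7.31 and 6.90 in plasma cells. Dck was higher on every germinal centre array than on any other sorted array, and transitional arrays, plasma cell arrays and pre-B replicate 2 were the lowest and overlapped. Its group means ran from germinal centre through Lig4/p53, Myc/Bcl6-labelled and Bcl6 tumours to plasmablasts, pro-B, pre-B, plasma and transitional cells.

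Chaf1b is a subunit of the chromatin assembly factor that places histones behind the fork, and Uhrf1 guides the maintenance methylase Dnmt1 to copied DNA. Chaf1b had levels of 6.64, 7.46 and 8.0 in Lig4/p53 tumours, of 5.79, 4.31 and 6.76 in Myc/Bcl6-labelled tumours and of 4.97, 5.16, 5.10 and 5.77 in Bcl6 tumours. Pro-B cells had 6.46, 7.48 and 8.17, pre-B cells 7.40, 10.11 and 6.98 and transitional cells 5.80, 5.22, 4.24 and 4.11 for Chaf1b. Germinal centre cells followed with 6.53, 6.34, 5.74, 6.14 and 5.61, plasmablasts with 5.46, 5.34, 5.71 and 4.96 and plasma cells with 8.02, 7.83 and 7.39. Chaf1b was highest on pre-B replicate 2, an array of narrow spread, and all Lig4/p53 tumours but replicate 6 exceeded every other tumour array. Levels of Uhrf1 were 9.90, 10.28 and 10.64 in Lig4/p53 tumours, 6.66, 7.77 and 6.02 in Myc/Bcl6-labelled tumours and 6.92, 5.60, 7.79 and 7.37 in Bcl6 tumours. In bone marrow, Uhrf1 had 9.21, 11.21 and 10.54 in pro-B, 10.54, 7.80 and 10.74 in pre-B and 9.04, 9.0 and 9.85 in plasma cells. In spleen, it had 8.46, 8.56, 7.01 and 6.90 in transitional cells, 10.33, 10.46, 10.26, 10.35 and 9.22 in germinal centre cells and 9.0, 9.74, 8.92 and 6.94 in plasmablasts. Uhrf1 of all Lig4/p53 tumours lay above every Myc/Bcl6-labelled and Bcl6 tumour, and germinal centre replicate 5 lay below the other germinal centre arrays.

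Pre-B and pro-B cells follow each other in the bone marrow. None of the 46 genes differed between them at an adjusted p under 0.05 in limma, against 0.161% of all genes called. At an unadjusted p under 0.05 were 6 of the 46, against 1565 of all 12393 genes. The differences ran from -1.69 to 1.96 around a median of -0.02, against 0.11 over all genes. Lig1, the ligase that joins lagging-strand pieces, averaged 7.33 ± 0.89 in pre-B cells and 8.50 ± 0.48 in pro-B cells (SD, n = 3 each), a difference of -1.17 ± 0.50 (SE, adjusted p = 0.355). Rpa2, a subunit of the single-strand binding protein, averaged 6.30 ± 2.41 and 7.98 ± 0.38 in the same order (-1.69 ± 0.72, adjusted p = 0.355). Pold1, the catalytic subunit of polymerase delta, averaged 8.90 ± 2.17 in pre-B and 10.44 ± 0.34 in pro-B cells (-1.55 ± 0.67, adjusted p = 0.362). Without the 2 narrow arrays of these groups these differences shrank to -0.53, -0.45 and -0.48, and again 0 were called in limma, against 0.702% of all genes.

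Transitional B cells had lower levels than pre-B cells for most of the set, with 7 genes called lower and 0 called higher. The 7 genes were Pole, Chaf1b, Mcm3, Dck, Mcm6, Dnmt1 and Pold2, against 2.91% of all genes called lower and 2.93% higher. Pole, the catalytic subunit of polymerase epsilon, averaged 4.63 ± 0.46 in transitional cells (n = 4) and 7.39 ± 0.44 in pre-B cells (n = 3), a difference of -2.77 ± 0.38 (SE, adjusted p = 7.66e-05). Its transitional arrays (4.05 to 5.17) all lay below the median of all genes (5.30), so that level is dim and no fold is given. Chaf1b averaged 4.84 ± 0.81 in transitional and 8.16 ± 1.7 in pre-B cells (-3.32 ± 0.57, adjusted p = 0.00094), and the difference was -2.35 without pre-B replicate 2. Mcm3, Dck, Mcm6, Dnmt1 and Pold2 differed by -1.21 to -2.27, with adjusted p from 0.0058 to 0.0338. Pold4 ran the other way, at 9.82 ± 0.39 in transitional and 7.21 ± 2.84 in pre-B cells (2.61 ± 0.80, adjusted p = 0.0593), and its difference was 0.97 without pre-B replicate 2. The median difference was -1.08, against 0.04 over all genes, and 38 of the 46 genes lay below 0.
Of 18 mitosis genes, 8 were called lower and 0 higher (median -2.07), led by the kinase gene Aurkb (-4.36 ± 0.58, adjusted p = 5.93e-05), Tpx2 (-3.47 ± 0.72) and Plk1 (-2.16 ± 0.45). Of 23 E2F, cyclin and CDK genes, 3 were called lower and 0 higher (Ccna2, Ccne1 and Ccne2, median -1.02). Of 46 other replication and nucleotide genes, 2 were called lower and 0 higher (4.35%, median -0.20), among them Pole3 (-1.84 ± 0.47, adjusted p = 0.0211). Granulocyte genes moved with the set: 10 of 10 were called lower, with array means of 3.75 to 5.56 in transitional and 8.39 to 11.35 in pre-B cells. Erythroid genes did too (5 of 8 lower, array means 4.21 to 4.75 against 7.86 to 8.24). Their part in the result was not tested. Without the narrow arrays 23 genes were called lower, against 14.0% of all genes called, as were 15 without pre-B replicate 2, against 6.89%. Without transitional replicate 2 the count was 4, against 4.37%.

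Germinal centre B cells had higher levels than transitional cells for 43 of the 46 genes, and 18 of them were called. Called higher were 39.1% of the set, against 5.29% of all genes, and 0 genes of the set were called lower, against 8.21%. Dck had the largest difference, at 10.67 ± 0.43 in germinal centre cells (n = 5) and 6.80 ± 0.36 in transitional cells (n = 4), or 3.87 ± 0.38 (SE, adjusted p = 5.48e-06), which is 14.6-fold higher. Cdc6 averaged 6.94 ± 0.61 in germinal centre cells and 3.92 ± 0.41 in transitional cells (3.02 ± 0.63, adjusted p = 0.00385), and no fold is given, since its transitional arrays (3.48 to 4.47) were dim. The median difference was 1.20, against -0.27 over all genes.
Of the 9 helicase genes, Mcm4 (2.73 ± 0.42, adjusted p = 0.000348), Mcm6 (2.70 ± 0.51, adjusted p = 0.00182), Mcm3 (1.49 ± 0.28) and Cdc45 (1.55 ± 0.47) rose. Mcm2, Mcm5, Mcm7, Mcm10 and Gins1 had differences of 0.76 or more that did not pass. Among the 8 origin genes, Cdc6 and Dbf4, the activator of the Cdc7 kinase, rose (Dbf4 2.14 ± 0.49, adjusted p = 0.00681). Of the 9 polymerase genes, Pole rose to 6.66 ± 0.25 in germinal centre cells, against 4.63 ± 0.46 in transitional cells (2.03 ± 0.33, adjusted p = 0.000526), and Pola1 and Pole2 rose too. Of the clamp genes only Rfc1, the large subunit of the clamp loader, was called (1.20 ± 0.33, adjusted p = 0.0213), while Pcna differed by 1.24 ± 0.45 (adjusted p = 0.0711). Rpa2, Rpa3 and Lig1 rose among the 5 genes of single strands and ligation. Both subunits of ribonucleotide reductase rose, Rrm1 by 2.73 ± 0.67 (adjusted p = 0.0107) and Rrm2 by 2.51 ± 0.54 (adjusted p = 0.00441). Uhrf1 (2.39 ± 0.61) and Dnmt1 (1.11 ± 0.29) rose, and Chaf1b differed by 1.23 ± 0.50 (adjusted p = 0.110).
Mitosis genes rose in germinal centre cells, with 16 of 18 called higher and 0 lower (median 2.33), for example Aurkb (3.21 ± 0.51, adjusted p = 0.000424) and Tpx2 (3.36 ± 0.63). Of the 46 other replication and nucleotide genes, 9 were called higher, led by the topoisomerase gene Top1 (3.28 ± 0.50, adjusted p = 0.000315) and the remodeller gene Hells (4.18 ± 0.65), and 1 lower, the mitochondrial kinase gene Tk2 (-1.54 ± 0.48). Of the 23 E2F, cyclin and CDK genes, 5 were called higher and 0 lower (Ccna2, Ccne2, E2f6, E2f8 and Tfdp1). Of the 40 genes with a promoter window, an E2F word stood in 8 of the 16 called higher and in 6 of the other 24.
The comparison was also one of strain, B6 against 129. Strain was then added as a covariate, which only the 3 pro-B arrays of both strains estimate. With it, 0 of the 46 genes were called in limma, against 0.323% of all genes. At an unadjusted p under 0.05 were 5 of the 46, a count not made over all genes for this fit. The median difference fell to 0.175, against -0.25 over all genes. Dck then differed by 3.50 (adjusted p = 0.0629). NK, T-cell, granulocyte and macrophage genes were higher in germinal centre cells too (5 of 5, 5 of 7, 7 of 10 and 4 of 7 called). The array means of NK genes were 7.13 to 8.57 in germinal centre and 4.10 to 4.63 in transitional cells, of T-cell genes 6.13 to 7.22 against 4.96 to 5.27, of granulocyte genes 6.49 to 8.59 against 3.75 to 5.56 and of macrophage genes 5.76 to 7.04 against 4.55 to 5.38. Their part in the result was not tested. Renewed quantile normalization moved the median of all genes from -0.27 to -0.05, and 14 genes of the set were then called higher, with a median of 0.94, against 7.33% of all genes called. Without the narrow arrays 33 were called higher, against 41.5% of all genes called.

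**Figure D3:**
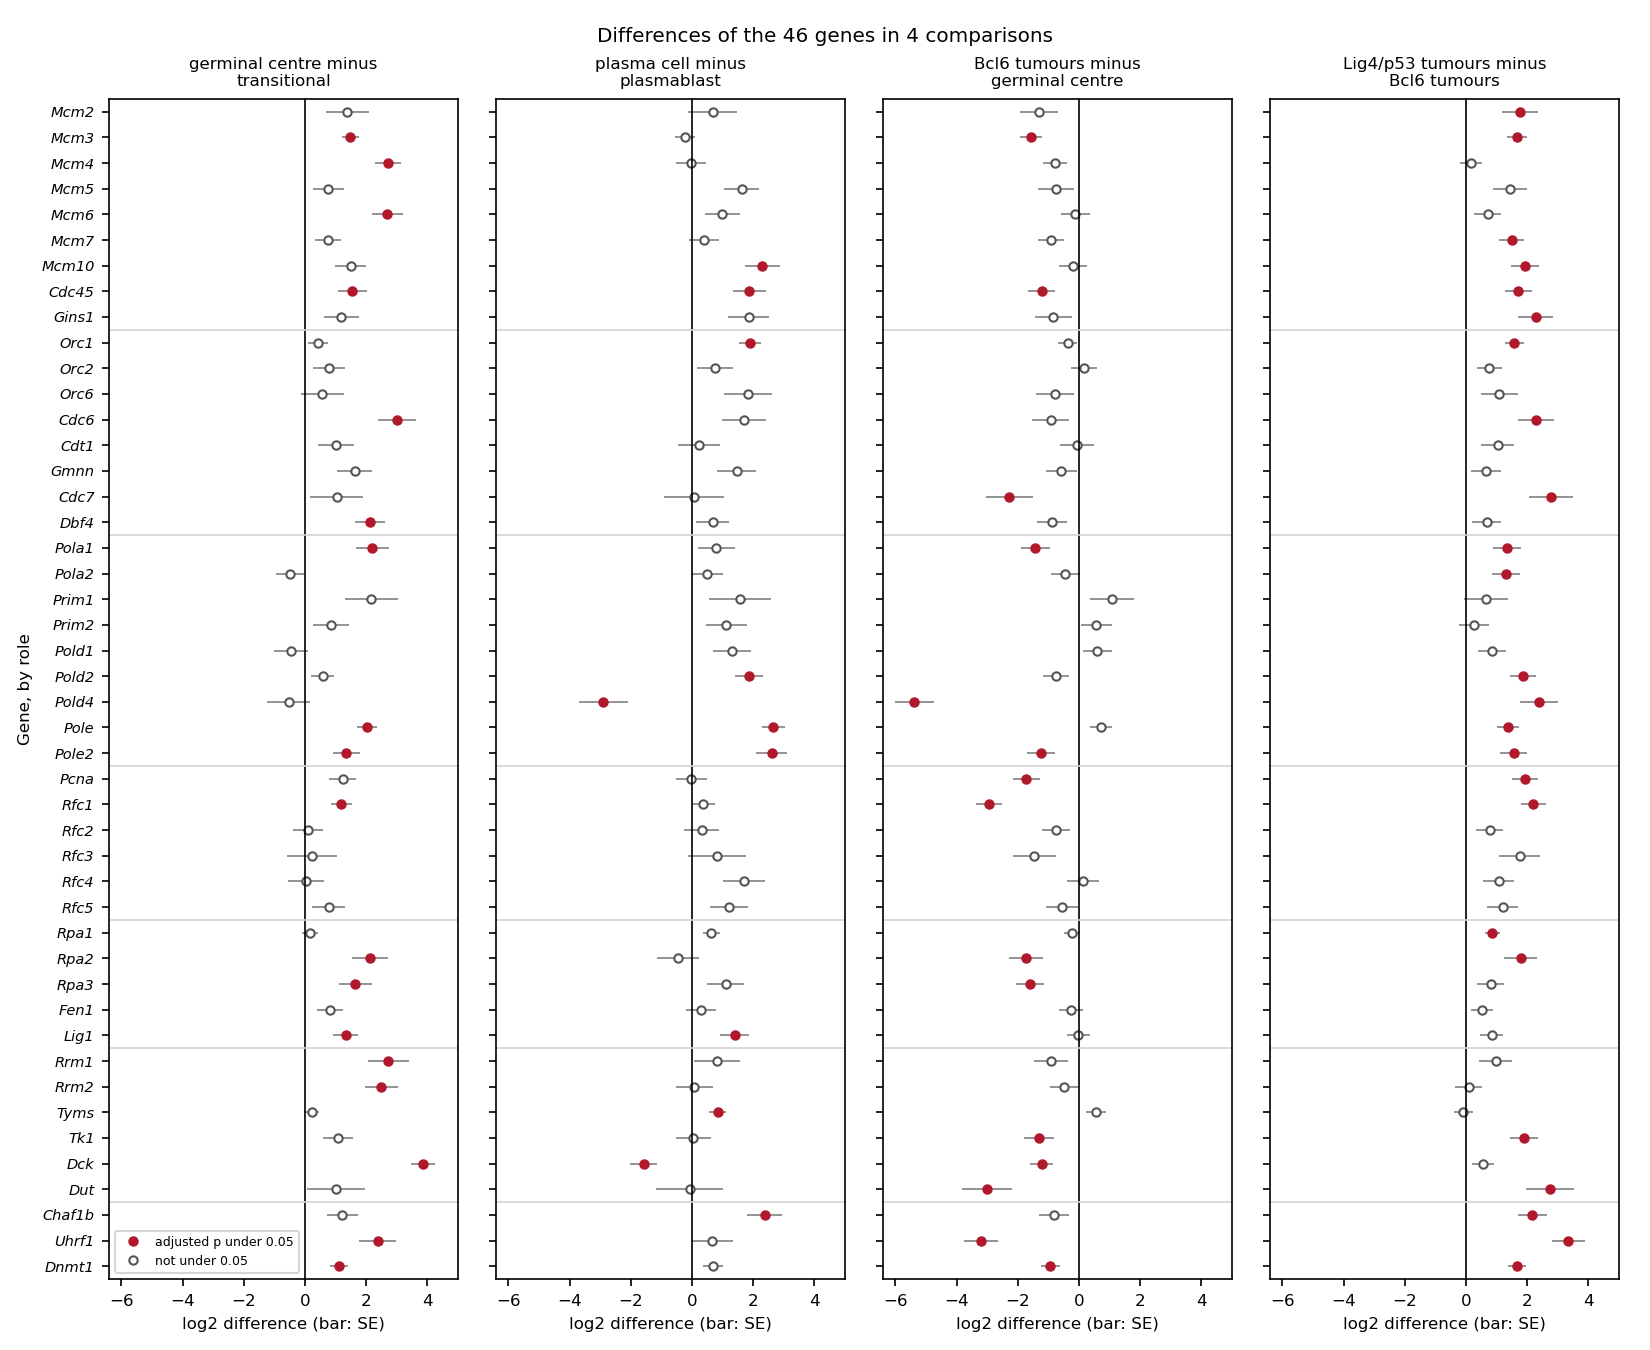
Log2 difference of each of the 46 genes (rows, by role) in 4 comparisons, with its SE, filled in red where the adjusted p was under 0.05. Germinal centre cells against transitional cells show 18 filled points, all right of 0, Bcl6 tumours against germinal centre cells 15, all left of 0, and Lig4/p53 against Bcl6 tumours 24, all right of 0.

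Plasmablasts had lower levels than germinal centre cells for 44 of the 46 genes, and 3 of them, Dck, Mcm4 and Rfc1, were called. That compares with 0.557% of all genes called lower. Dck averaged 8.77 ± 0.55 in plasmablasts (n = 4) and 10.67 ± 0.43 in germinal centre cells (n = 5), a difference of -1.90 ± 0.38 (adjusted p = 0.0185). Mcm4 averaged 8.90 ± 0.98 in plasmablasts and 10.86 ± 0.40 in germinal centre cells (-1.96 ± 0.42, adjusted p = 0.027). Rfc1 averaged 9.05 ± 0.31 in plasmablasts and 10.55 ± 0.37 in germinal centre cells (-1.49 ± 0.33, adjusted p = 0.0369). On their second-brightest probe sets Dck averaged 6.94 and 8.75, Mcm4 9.33 and 9.80 and Rfc1 7.80 and 8.61 in the same order. None of these passed on that set. Differences of the 46 genes had a median of -0.70, against 0.05 over all genes. An unadjusted limma p under 0.05 held for 13 of them, against 1160 of all 12393 genes. Of the 18 mitosis genes, 0 were called in limma (5 at an unadjusted p under 0.05, median -1.09). NK genes were lower in plasmablasts (4 of 5 called, array means 4.14 to 6.15 against 7.13 to 8.57), as were T-cell genes (3 of 7, 5.17 to 5.70 against 6.13 to 7.22), and their part in the result was not tested. The count of called genes was 0 without any 1 of germinal centre replicates 1, 2 and 3 or plasmablast replicates 1, 3 and 4. All genes then had 0.25% to 0.807% called. Without germinal centre replicate 4 the count was 1, against 0.5% of all genes.
Against transitional cells, plasmablasts were higher for 39 of the 46 genes, and Dck alone was called, with 0.186% of all genes called higher. Dck averaged 8.77 ± 0.55 in plasmablasts and 6.80 ± 0.36 in transitional cells (n = 4 each), a difference of 1.96 ± 0.40 (adjusted p = 0.0347). Mcm6 averaged 8.49 ± 0.51 in plasmablasts and 6.53 ± 0.88 in transitional cells (1.96 ± 0.54, adjusted p = 0.0996). Across the set the median was 0.59, against -0.21 over all genes. Granulocyte genes were higher in plasmablasts too (5 of 10 called, array means 6.54 to 8.64 against 3.75 to 5.56), and their part in the result was not tested. These 2 comparisons share the plasmablast arrays, and they share germinal centre or transitional arrays with the preceding one. The call of Dck was lost without transitional replicate 1, 2 or 4 or plasmablast replicate 1, 2 or 3, and with the strain covariate, which left 0.0565% of all genes called. Plasmablast replicate 4 had low values for many of the genes, and its plasma cell markers averaged 7.26, against up to 10.03 on the other plasmablast arrays. Without the narrow arrays 10 genes were called in each of these 2 comparisons, against 6.82% and 17.1% of all genes.

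Plasma cells had higher levels than plasmablasts for 39 of the 46 genes, with 9 called higher and 2 lower, against 8.9% and 5.39% of all genes. Pole and Pole2 of polymerase epsilon rose most. Pole averaged 8.25 ± 0.89 in plasma cells (n = 3) and 5.57 ± 0.42 in plasmablasts (n = 4), a difference of 2.67 ± 0.38 (adjusted p = 3.89e-05, 6.36-fold higher). Pole2, its second subunit, averaged 8.49 ± 0.26 in plasma cells and 5.88 ± 0.46 in plasmablasts (2.61 ± 0.51, adjusted p = 0.00114). Orc1, the largest subunit of the origin recognition complex, rose by 1.90 ± 0.36 (adjusted p = 0.000867). Pold2, Chaf1b, Mcm10, Cdc45, Tyms and Lig1 also rose, with adjusted p from 0.00608 to 0.0487.
Dck and Pold4 fell. Dck averaged 7.19 ± 0.26 in plasma cells and 8.77 ± 0.55 in plasmablasts (-1.58 ± 0.43, adjusted p = 0.0162). Pold4 averaged 6.29 ± 1.29 in plasma cells and 9.18 ± 0.45 in plasmablasts (-2.89 ± 0.80, adjusted p = 0.0175). The median difference of the 46 genes was 0.81, against 0.22 over all genes. Of the mitosis genes 5 of 18 were called higher and 0 lower (median 1.44), among them Cenpf (2.67 ± 0.59, adjusted p = 0.00349) and Ttk (2.09 ± 0.61). Among the 23 E2F, cyclin and CDK genes, the inhibitor gene Cdkn1a (2.89 ± 0.65) and E2f6 rose, and Cdkn1b (-2.23 ± 0.46) and Ccnd3 fell.
The 18S control was 4.02 to 7.38 in plasma cells and 10.19 to 10.86 in plasmablasts. It separated these groups on every array, replicate 3 included, so RNA quality and group cannot be told apart. Plasma cell replicates 1 and 2 had the high 3′ excess given above. Without them, which leaves 1 plasma cell array assumed to vary like the other groups, 3 genes were called, all higher (Pole2 2.90, Orc1 2.00 and Pole 1.66), against 5.90% of all genes, and Pold4 differed by -1.40 (adjusted p = 0.559). Without replicate 1 or replicate 2 alone 6 were called, against 9.21% and 9.22% of all genes. With the 3′ minus 5′ difference as a covariate 5 were called, against 10.1%. With the narrow arrays left out, 23 were called, against 32.5% of all genes. Granulocyte genes were lower in plasma cells (7 of 10, array means 3.24 to 3.88 against 6.54 to 8.64 in plasmablasts). B-lineage genes were lower as well (3 of 5, 7.89 to 8.67 against 9.53 to 9.64), and erythroid genes (4 of 8, 3.79 to 4.31 against 4.58 to 7.41). Plasma cell markers gave 1 of 5 lower and 0 higher (7.80 to 7.99 against 7.26 to 10.03). NK genes gave 2 of 5 lower (3.24 to 3.99 against 4.14 to 6.15), macrophage genes 2 of 7 lower (4.43 to 4.76 against 4.39 to 6.02) and T-cell genes 2 of 7 lower and 1 higher (4.44 to 4.93 against 5.17 to 5.70), and their part in the result was not tested.

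Lig4/p53 tumours were set against pro-B cells, the earliest normal stage sampled. They had higher levels for 37 of the 46 genes, with 9 called higher and 0 lower, against 13.2% of all genes called higher and 7.91% lower. Orc2, a subunit of the origin recognition complex, averaged 8.69 ± 0.19 in Lig4/p53 tumours (n = 6) and 6.50 ± 1.55 in pro-B cells (n = 3), a difference of 2.19 ± 0.46 (adjusted p = 0.000892). Pole averaged 8.76 ± 0.24 in the tumours and 7.17 ± 0.31 in pro-B cells (1.58 ± 0.39, adjusted p = 0.00346). Prim1, the primase subunit that makes the primer, averaged 10.86 ± 0.32 and 7.88 ± 2.54 in the same order (2.98 ± 0.77, adjusted p = 0.00572). Mcm4, Mcm10, Dnmt1, Dck, Cdc7 and Cdt1 rose by 1.08 to 2.40, with adjusted p from 0.0115 to 0.034. Pro-B replicate 1, a narrow array, was low for several of these. With the narrow arrays left out, Prim1 differed by 1.52 (adjusted p = 0.13), Cdc7 by 0.59 (adjusted p = 0.297) and Orc2 by 1.30 (adjusted p = 0.00158), and Mcm4, Mcm10 and Cdt1 no longer passed (adjusted p from 0.1 to 0.154). On the second probe set Cdc7 differed by -0.18. The 46 genes had a median difference of 0.67, against -0.07 over all genes. Without pro-B replicate 1 the count was 2, against 12.2% of all genes, and without pro-B replicate 3 it was 14, against 23.7%. Without the narrow arrays 6 genes were called, 4 higher and 2 lower, against 19.9% of all genes, and the median was 0.02.
Of the 46 other replication and nucleotide genes, 12 were called higher and 1 lower, led by Cad (4.20 ± 0.66, adjusted p = 3.41e-05), which starts pyrimidine synthesis, and the purine gene Paics (1.69 ± 0.31). The 23 E2F, cyclin and CDK genes had 5 called higher, among them Cdkn2a (4.08 ± 0.36, adjusted p = 4.79e-09), and 3 lower, among them Ccnd3 (-3.32 ± 0.53). Granulocyte genes were lower in the tumours (9 of 10 called), with array means of 5.26 to 7.21 against 9.96 to 10.47 in pro-B cells. NK genes (5 of 5, 3.30 to 4.75 against 5.12 to 7.23), T-cell genes (4 of 7, 3.79 to 4.10 against 4.83 to 5.97) and erythroid genes (3 of 8, 3.66 to 3.82 against 4.36 to 6.46) were lower as well. Their part in the result was not tested. The 18S control was 4.15 to 6.15 in Lig4/p53 tumours and 10.82 to 11.28 in pro-B cells. It separated these groups on every array, so RNA quality and group cannot be told apart.

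Between tumours, the Lig4/p53 arrays were higher than the Bcl6 arrays for 45 of the 46 genes. Called higher were 24 genes (52.2%), against 15.5% of all genes, and 0 were called lower, against 10.9%. Uhrf1 averaged 10.27 ± 0.25 in Lig4/p53 tumours (n = 6) and 6.92 ± 0.95 in Bcl6 tumours (n = 4), a difference of 3.35 ± 0.54 (adjusted p = 2.38e-05, 10.2-fold higher). On its second probe set the means were 5.62 and 5.17, so this fold rests on the brightest set. Dnmt1, the maintenance methylase, averaged 12.29 ± 0.20 in Lig4/p53 and 10.61 ± 0.82 in Bcl6 tumours (1.68 ± 0.30, adjusted p = 9.72e-05). All 3 chromatin genes rose, Chaf1b by 2.17 ± 0.47 (adjusted p = 0.000876). Of the 9 helicase genes 6 rose (Mcm3, Mcm10, Cdc45, Gins1, Mcm7 and Mcm2), and Mcm4 differed by 0.17 (adjusted p = 0.760). Polymerase genes gave 6 of 9, among them Pold2 (1.86 ± 0.42, adjusted p = 0.00119). Orc1 (1.58 ± 0.31), Cdc6 and Cdc7 rose among the origin genes. Rfc1 (2.20 ± 0.41) and Pcna (1.93 ± 0.43) rose among the clamp genes. Rrm2 (0.09) and Tyms (-0.09) were the nucleotide genes closest to 0.
The set had a median difference of 1.36, against -0.08 over all genes, and 31 genes were higher on every Lig4/p53 array than on any Bcl6 array (15.5% of all genes were). The 3′ excess was 2.25 to 3.64 in Lig4/p53 and 3.65 to 4.60 in Bcl6 tumours and so separated these groups on every array: RNA quality and group cannot be told apart. With the 3′ minus 5′ difference as a covariate 22 genes were called higher, against 20.3% of all genes called. Of the 46 other replication and nucleotide genes, 19 were called higher and 1 lower, led by Dnajc9 (1.85 ± 0.32, adjusted p = 5.60e-05). Mitosis genes gave 6 of 18 higher and 0 lower (median 1.13), with Kif11 at 2.10 ± 0.44. Of the E2F, cyclin and CDK genes 11 of 23 were called higher and 1 lower, Cdkn1a (-1.66 ± 0.60). T-cell genes were lower in Lig4/p53 tumours (7 of 7 called, array means 3.79 to 4.10 against 5.93 to 6.90 in Bcl6 tumours), as were macrophage genes (3 of 7, 4.86 to 6.28 against 7.13 to 9.42). Their part in the result was not tested. Without Bcl6 tumour replicate 2 the count was 15, against 16.7% of all genes, and without all narrow arrays it was 26, against 30.4% of all genes.

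Myc/Bcl6-labelled and Bcl6 tumours showed no called difference in limma, 0 of 46, against 3.91% of all genes called. At an unadjusted p under 0.05 were 3 of the 46, against 2327 of all 12393 genes. Rpa2 averaged 5.13 ± 1.53 in Myc/Bcl6-labelled tumours (n = 3) and 7.01 ± 0.20 in Bcl6 tumours (n = 4), a difference of -1.88 ± 0.64 (adjusted p = 0.0893). Mcm3 averaged 7.05 ± 1.02 in Myc/Bcl6-labelled and 8.02 ± 0.84 in Bcl6 tumours (-0.97 ± 0.40, adjusted p = 0.171). Its second-brightest probe set averaged 9.13 and 8.58 in the same order, while its dimmer sets were lower in Myc/Bcl6-labelled tumours. Tk1, the salvage kinase of thymidine, averaged 5.56 ± 0.77 and 6.72 ± 0.75 in the same order (-1.16 ± 0.55, adjusted p = 0.244). Without the narrow arrays 8 genes were called lower in Myc/Bcl6-labelled tumours, against 29.9% of all genes called. Without Myc/Bcl6-labelled replicate 1 the count was 2, against 5.55% of all genes, and without Bcl6 tumour replicate 2 it was 1, against 11.2%. The Myc/Bcl6-labelled arrays themselves had an interquartile range of 2.33 to 2.85.

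Bcl6 tumours had lower levels than germinal centre cells for 39 of the 46 genes, and 15 were called lower and 0 higher. That is 32.6% of the set, against 13.9% of all genes called lower and 13.0% higher. Pold4 was lowest, at 3.90 ± 0.91 in Bcl6 tumours (n = 4) and 9.29 ± 0.24 in germinal centre cells (n = 5), a difference of -5.39 ± 0.64 (adjusted p = 2.34e-07), with dim levels on all 4 tumour arrays (3.07 to 5.19), so that no fold is given. Uhrf1 averaged 6.92 ± 0.95 in Bcl6 tumours and 10.12 ± 0.51 in germinal centre cells (-3.21 ± 0.56, adjusted p = 7.28e-05). Rfc1 averaged 7.62 ± 1.26 in the tumours and 10.55 ± 0.37 in germinal centre cells (-2.93 ± 0.42, adjusted p = 4.59e-06). Dut, which clears dUTP, fell by 3.0 ± 0.82 (adjusted p = 0.00703), Mcm3 by 1.56 ± 0.35 (adjusted p = 0.00128) and Pcna by 1.72 ± 0.45 (adjusted p = 0.00443). Rpa3, Dck, Rpa2, Pola1, Dnmt1, Cdc7, Cdc45, Pole2 and Tk1 fell as well, with adjusted p from 0.00944 to 0.0446, and without the narrow arrays Dnmt1, Cdc45 and Pole2 no longer passed (differences of -0.53, -0.77 and -0.70). Mcm4 and Mcm6 differed by -0.78 (adjusted p = 0.135) and -0.11, and did not pass.
The median difference was -0.80, against 0.21 over all genes. Renewed quantile normalization moved the median of all genes to 0.04 and that of the set to -0.49. Then 8 genes were called lower, against 20.7% of all genes called. The mitosis genes gave 5 of 18 lower and 1 higher, and the E2F, cyclin and CDK genes 8 of 23 lower, with Ccnd3 at -3.45 ± 0.50, and 2 higher, with Cdkn1a at 2.24 ± 0.62. Of the 46 other replication and nucleotide genes 10 were called lower, among them Slbp (-3.18 ± 0.76), and 4 higher, among them Paics (1.45 ± 0.29). The 18S control and the 3′ excess separated these groups on every array, so RNA quality and group cannot be told apart. With the 3′ minus 5′ difference as a covariate 4 genes were called lower, against 7.04% of all genes called. Without Bcl6 tumour replicate 2 the count was 8 of 46, 7 lower and 1 higher, against 18.8% of all genes called. Without germinal centre replicate 2 it was 9 of 46, against 2725 of all 12393 genes. In each of these cases the share of the set was below that of all genes. Without the narrow arrays the count was 15, 14 lower and 1 higher, against 32.1% of all genes. NK genes were lower in the tumours (5 of 5, array means 4.11 to 5.24 against 7.13 to 8.57), as were granulocyte genes (5 of 10, 3.49 to 9.73 against 6.49 to 8.59) and germinal centre markers too (4 of 4, 4.73 to 5.88 against 7.51 to 9.03). Macrophage genes were higher (3 of 7, 7.13 to 9.42 against 5.76 to 7.04), and their part in the result was not tested. The last 2 comparisons and that of Lig4/p53 with Bcl6 tumours share the Bcl6 arrays.

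Probe sets of 1 gene did not always move alike. For 27 genes a second probe set could be compared. The second-brightest set had the same sign as the brightest for 23 in germinal centre against transitional cells, for 25 in Lig4/p53 against Bcl6 tumours and for 20 in Bcl6 tumours against germinal centre cells. Of these 27, germinal centre against transitional cells had 11 called on the brightest set, 9 on the second and 4 on both. Lig4/p53 against Bcl6 tumours had 12, 14 and 7, and Bcl6 tumours against germinal centre cells 8, 10 and 3. The 2 sets differed by over 1.5 for 7, 6 and 8 genes in these comparisons. Mcm4 fell by 2.70 ± 0.58 (adjusted p = 0.000842) in Bcl6 tumours against germinal centre cells on its second set, at 7.11 and 9.80, where the brightest set gave -0.78. Its Lig4/p53 minus Bcl6 difference was 2.42 ± 0.56 (adjusted p = 0.00183) on the second set, where the brightest gave 0.17. Rrm2 gave -2.28 ± 0.55 (adjusted p = 0.0023) on its second set in Bcl6 tumours against germinal centre cells, and -0.47 on its brightest. Rpa1 likewise gave -2.38 ± 0.37 (adjusted p = 1.79e-05) and -0.23, and the flap nuclease gene Fen1 gave -2.31 ± 0.63 (adjusted p = 0.00652) and -0.26. On its second set Mcm3 averaged 8.58 in Bcl6 tumours and 8.66 in germinal centre cells, against 8.02 and 9.58 on its brightest. Its dimmer sets had 7.31 and 8.73, 6.89 and 7.77, and 5.50 and 6.49 in the same order. In germinal centre against transitional cells the clamp loader gene Rfc4 gave 2.81 ± 0.56 (adjusted p = 0.0029) on its second set and 0.05 on its brightest. Fen1 there gave 2.45 ± 0.65 (adjusted p = 0.0186) and 0.83. Other rises were smaller on the second set. Mcm4 there averaged 9.80 in germinal centre and 8.93 in transitional cells, against 10.86 and 8.13 on its brightest set. Uhrf1 averaged 5.83 and 5.75, against 10.12 and 7.73, and Rpa2 averaged 5.94 and 5.49, against 8.73 and 6.60. Rfc1, the only clamp gene called there, averaged 8.61 and 8.49, against 10.55 and 9.35. The second set of Uhrf1 was dim in Bcl6 tumours and germinal centre cells (5.17 and 5.83) and gave -0.66, where the brightest gave -3.21. The second set of Dbf4 was dim too and gave -0.76 in germinal centre against transitional cells, where the brightest gave 2.14.

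**Figure D4:**
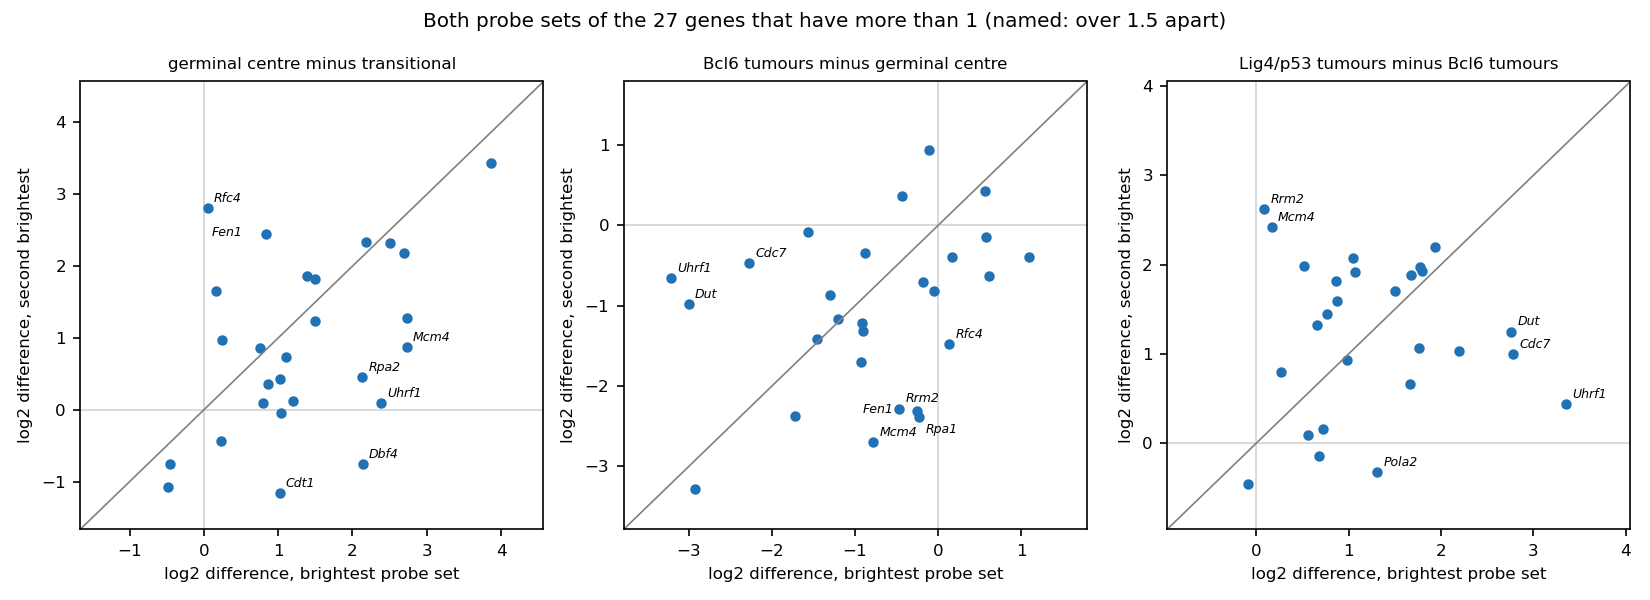
Log2 difference on the brightest probe set (x axis) against the second-brightest set (y axis) of the 27 genes that have both, in 3 comparisons, with the line of equal values; genes over 1.5 apart are named. In Bcl6 tumours against germinal centre cells, Mcm4, Rrm2, Rpa1 and Fen1 lie far below the line, and Uhrf1, Dut and Cdc7 above it.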

How the data were processed

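Microarray RNA levels of 22 sorted B-cell samples and 13 tumours were used. RNA was isolated with Tripure, amplified with NuGen Ovation V2 and biotin-labelled, per the labels' protocols. The deposited table holds log2 values that the authors made by RMA, per the submitters' processing notes; whether all arrays were normalized together is not given in the sources used here. Of 22690 probe sets, 20380 had 1 symbol and gave 12393 genes, each by its brightest probe set; 64 controls were left out, as were 691 probe sets of more than 1 symbol and 1555 without a symbol.

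Groups came from sample titles. limma 3.58.1 (R 4.3.3) fitted stage comparisons on the 22 sorted arrays and tumour comparisons on all 35, with Benjamini-Hochberg adjustment over 12393 genes and calls at an adjusted p under 0.05. The script was tested on simulated data with 200 changed genes. Tables and plots used Python 3.11.15, pandas 2.3.3 and matplotlib 3.10.9. The number of arrays limits the precision. The 46 genes and all lists were chosen with earlier results of these data known. For each comparison, named genes were up to 8 called of smallest p in each direction, up to 4 of smallest p where fewer than 3 were called, and up to 4 called from each related list. Alternatives were other probe-set choices, renewed quantile normalization, leaving out dim genes, array weights, fits on the compared groups alone, replicate, strain and 3′ minus 5′ terms, and leaving out arrays. Using the second-brightest probe set, and leaving out plasma cell replicates 1 and 2, were added after seeing the data.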

Additional observations from a re-analysis of the deposited data

Results flagged for a closer look

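In groups of 4 to 10 arrays, 5 of 75 sets of values held an array far from the others; chance flags about 1 in 20. Bcl6 tumour replicate 2 had Mcm3 at 6.76, below the other Bcl6 tumours by a wide gap. The same array had Mcm7 at 8.22, and its mean over the 46 genes was 6.72. It is also one of the 3 arrays of narrow spread. Uhrf1 of germinal centre replicate 5 was 9.22, below the other germinal centre arrays. Plasmablast replicate 4 had a mean over the 46 genes of 7.02, below the other plasmablasts. Comparisons that use these arrays are given without them above or among the results that leave out 1 array.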

How the results depend on the processing

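Counts are called genes of 46, with the share of all genes called under the same setting in brackets where the count moved. In the 6-stage test the 24 (32.5%) became 44 with array weights (77.5%), 42 without the narrow arrays (62.7%) and 17 to 35 without 1 array (25.1% to 44.0%). Transitional against pre-B cells (7, 5.84%) gave 15 with renewed quantile normalization (8.37%), 1 with these groups alone (1.63%), 11 with the second probe set (5.71%), 23 without the narrow arrays (14.0%) and 4 to 15 without 1 array (3.8% to 8.5%). Germinal centre against transitional cells (18, 13.5%) gave 36 with array weights (45.3%), 33 with these groups alone (42.7%), 33 without the narrow arrays (41.5%), 0 with strain (0.323%) and 12 to 19 without 1 array (7.59% to 11.6%). Plasmablasts against germinal centre cells (3, 0.678%) gave 0 with the mean of all probe sets (0.662%) or the second set (0.524%), 16 with weights (24.3%), 11 alone (13.5%), 10 without the narrow arrays (6.82%) and 0 to 3 without 1 array (0.25% to 0.888%). Plasmablasts against transitional cells (1, 0.42%) gave 0 with the mean of probe sets (0.42%), the second set (0.428%) or strain (0.0565%), 18 with weights (26.6%), 5 alone (10.5%), 10 without the narrow arrays (17.1%) and 0 to 1 without 1 array (0.0403% to 1.15%). Plasma cells against plasmablasts (11, 8.9% higher and 5.39% lower) gave 28 with weights (50.4%), 18 alone (26.7%), 5 with the 3′ minus 5′ term (10.1%), 23 without the narrow arrays (32.5%), 3 without plasma cell replicates 1 and 2 (5.9%), and 6 to 11 without 1 array (9.21% to 14.9%). Bcl6 tumours against germinal centre cells (15, 26.8%) gave 8 with quantile normalization (20.7%), 4 with the 3′ minus 5′ term (7.04%) and 8 to 14 without 1 array (18.8% to 26.6%). Lig4/p53 tumours against pro-B cells (9, 21.1%) gave 5 with the mean of probe sets (21.1%) and 2 to 14 without 1 array (12.2% to 26.0%), and against Bcl6 tumours (24, 26.4%) gave 15 to 25 (16.7% to 27.5%). Myc/Bcl6-labelled against Bcl6 tumours (0, 3.91%) gave 1 with weights (5.33%) or the second set (4.37%), 8 without the narrow arrays (29.9%) and 0 to 2 without 1 array (0.96% to 11.2%). Pre-B against pro-B cells gave 0 to 0 without 1 array. The second probe set turned Dbf4 to -0.76 in germinal centre against transitional cells and Cdc7 to -0.18 in Lig4/p53 tumours against pro-B cells. The cause of these changes was not tested. With the replicate number as a block, the count was 4 for transitional against pre-B cells (3.67%) and 0 for plasmablasts against transitional cells (0.169%). It was 18 for germinal centre against transitional cells (8.66%) and 15 for Bcl6 tumours against germinal centre cells (23.3%). Same-numbered arrays had deviation correlations of -0.49 to 0.39. Differently numbered arrays were not compared, so these values cannot tell whether the numbers pair the samples.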
